A study of Mus musculus with 8 samples.

Results

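Macrophages and dendritic cells are phagocytes of the myeloid lineage that engulf debris, present antigen to T cells and are common in tumours. They are recognised by lysozyme, Fc receptors, complement C1q, C-type lectins and the growth factor receptors that keep them alive, and T cells make most of these transcripts at low levels or not at all. The transcripts of 40 such genes were looked up by name in RNA from CD8+ T cells sorted out of mouse tumours, and 38 of the 20029 genes in the table carried one of the names. The other 2, Adgre1 and Spi1, are listed there under the older symbols Emr1 and Sfpi1 and are given separately.

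MC38-OVA is a mouse colon carcinoma line that carries the model antigen ovalbumin, and it was grown under the skin of the flank. The 4 knockout (KO) libraries, numbered 1 to 4, came from mice with the B6.129S4-Pglyrp1tm1.1Lky/J allele, which lack Pglyrp1, a secreted protein that binds bacterial cell walls. The 4 wild-type (WT) libraries, numbered 6 to 9, came from C57BL/6J mice. Each SMART-Seq2 library, of full-length cDNA, was made from 1000 living cells gated on CD45, TCRβ and CD8, so myeloid cells were outside the gate. The age and sex of the mice and the time after injection are not given in the labels. Levels are the deposited values scaled to 1000000 per library and are called TPM, after the authors' name for them. How the authors corrected for transcript length is not described. The smallest value above 0 had a lower quartile of 4 in genes of up to 600 bases and of 1 above 1000 bases, and comparisons between genes rest on that correction.

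No KO library had a value above 0 for Pglyrp1, which stood at 123 to 210 TPM in the WT libraries. The T cell markers Cd3e (675 to 1011 TPM), Cd8a (376 to 506 TPM) and Cd8b1 (1039 to 1728 TPM) were abundant in every library. Cd4, the co-receptor of helper T cells that some myeloid cells also carry, was at 66.7 TPM in KO 3 and 15.6 TPM in KO 4, where the other 6 libraries had 0.393 to 4.84 TPM, and its part in the results was not tested. WT 6 and WT 9 had less Gapdh, a glycolytic enzyme (2287 and 2529 TPM), than the other 6 libraries (5161 to 7348 TPM). The deposited values summed to 2223162 to 3342847 per library, and read depth is unknown. KO 3 and KO 4 stood apart from the other 6 libraries in the myeloid transcripts, so the counts of genes are also given without both, as are fold changes in the plot of fold changes where they could be fitted.

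The 38 transcripts summed to 527, 458, 5607 and 8399 TPM in KO 1 to 4 and to 218, 349, 339 and 314 TPM in WT 6 to 9. They took 0.561% and 0.840% of the total in KO 3 and KO 4, 0.0527% and 0.0458% in KO 1 and KO 2, and 0.0218% to 0.0349% in WT libraries. The sum was thus highest in KO 4 and KO 3, and it was higher in KO 1 and KO 2 than in every WT library. Ctsb, Tyrobp and Fcer1g were its largest parts in KO 1 and KO 2. Not every role followed this order. The C1q chains summed to 0 in KO 1 and the C-type lectins to 0 in KO 2. Growth factor receptors and lineage factors summed to 7.26 TPM in KO 2 against 9.05 TPM in WT 9. Dendritic cell genes summed to 43.7 and 31.4 TPM in KO 1 and KO 2 against 66.6 TPM in WT 7. The macrophage and monocyte, Fc receptor and enzyme groups followed it. For 35 of the 38 genes both KO 3 and KO 4 exceeded the other 6 libraries, 28 of them among the 31 that passed the filter described below, where 14.2% of all 10732 genes did. The 3 exceptions were Itgax, Xcr1 and Arg1. KO 3 and KO 4 were singled out by their levels of these same genes, so the counts describe the pair and do not test it. In bulk RNA, more cells of a type and more RNA per cell cannot be told apart.

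**Figure D1:**
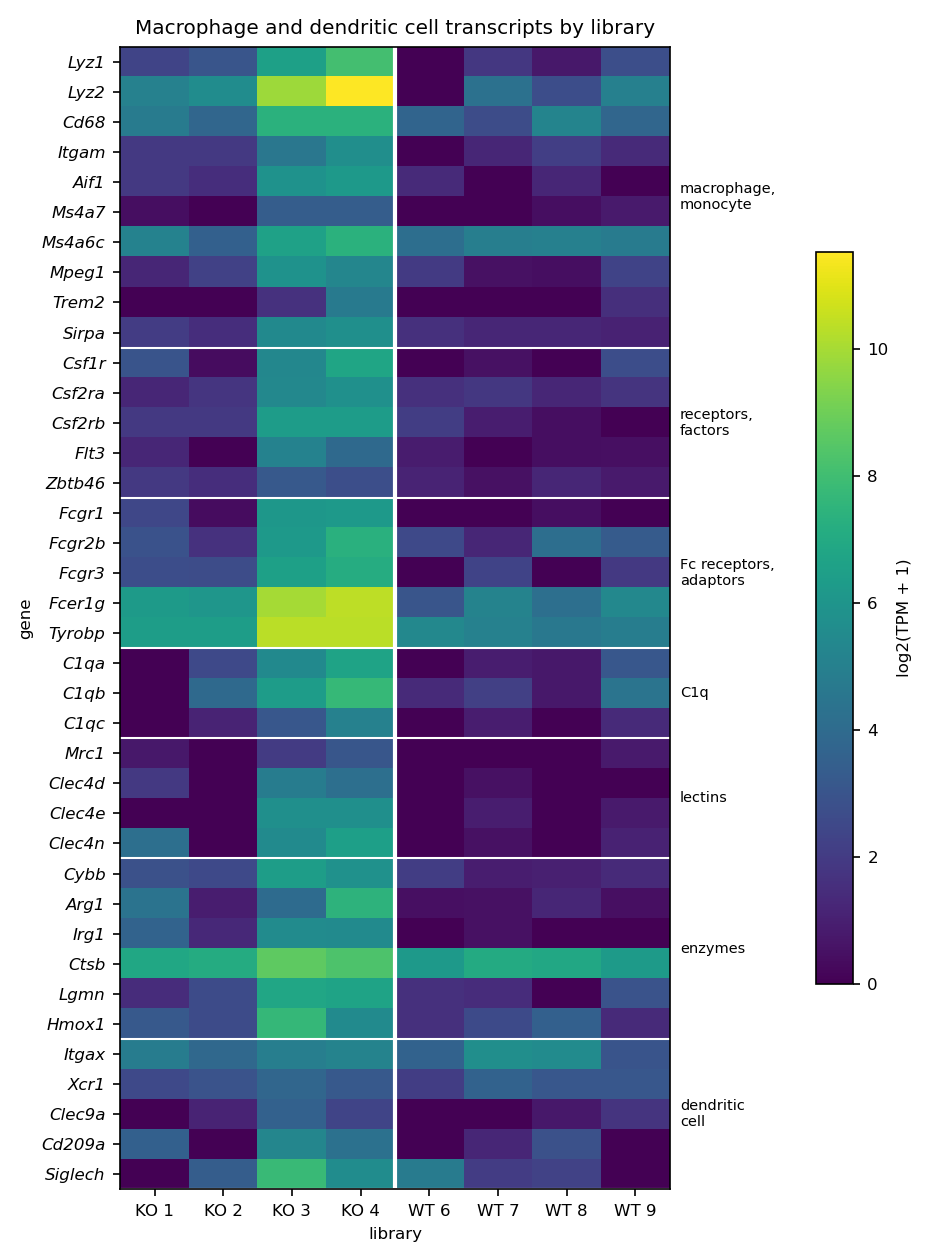
Level of each of the 38 genes (rows, grouped by role) in each library (columns), as log2(TPM + 1) in colour from dark (0) to yellow. The columns of KO 3 and KO 4 are the brightest for 35 genes, and Ctsb, Ms4a6c, Tyrobp and Fcer1g are visible in every library.

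In the comparison of KO with WT, 0 of the 31 members that could be tested passed limma's Benjamini-Hochberg threshold of 0.05 over all genes, where 3 of 10732 genes (0.028%) did, 0.0186% higher and 0.00932% lower. The smallest adjusted p among the members was 0.306, for Irg1. At an unadjusted limma p under 0.05 there were 20 members, all higher in KO, beside 6.01% of all genes higher and 3.07% lower (645 and 329 genes). Under quantile normalization these were 565 and 535 genes, with the same count of 20 members. All 31 log2 fold changes were positive, with a median of 2.38, where 55.2% of all genes were positive with a median of 0.04. The filter kept genes at 1 TPM or more in 4 libraries or more, and 8 of the 31 met it with at most 1 WT library at that level. These counts are therefore a description and not a measure of how firmly the list as a whole differs.

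For the fit without KO 3 and KO 4 the filter asked for 1 TPM in 3 libraries or more. Leaving out both reduced the members at an unadjusted limma p under 0.05 to 3 of 24, beside 1.51% of all genes higher and 2.57% lower. They were Tyrobp, Cybb and Fcer1g, with limma adjusted p of 0.795, 0.9998 and 0.9998, and 0 of 24 passed the adjusted threshold (0.00938% of all genes, all of them lower in KO). The median log2 fold change fell to 0.59, with 17 members positive and 7 negative, where 47.3% of all genes were positive. Both remaining KO libraries lay above every WT library for 7 of the 24 (5.01% of all genes) and below for 0 (7.93%). Leaving out either library alone gave 9 of 24 tested members, beside 3.24% of all genes higher without KO 3 and 3.02% without KO 4. Without WT 6 it was 13 of 31, beside 3.63%.

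Every KO library exceeded every WT library for 8 of the 31 tested members, and for 2.62% of all genes tested. None of the members had every KO library below every WT library, as 2.4% of all genes had. The 8 were Lyz2, Aif1, Zbtb46, Fcgr3, Fcer1g, Tyrobp, Cybb and Irg1. KO 1 was the nearest to the WT libraries for Lyz2 (32.2 against 31.1 TPM in WT 9) and KO 2 for the other genes except Tyrobp. For Aif1 and Zbtb46 the gap was small and at low values. KO 2 was at 1.81 TPM for each, against 1.63 TPM in WT 6 for Aif1 and 1.39 TPM in WT 8 for Zbtb46.

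**Figure D2:**
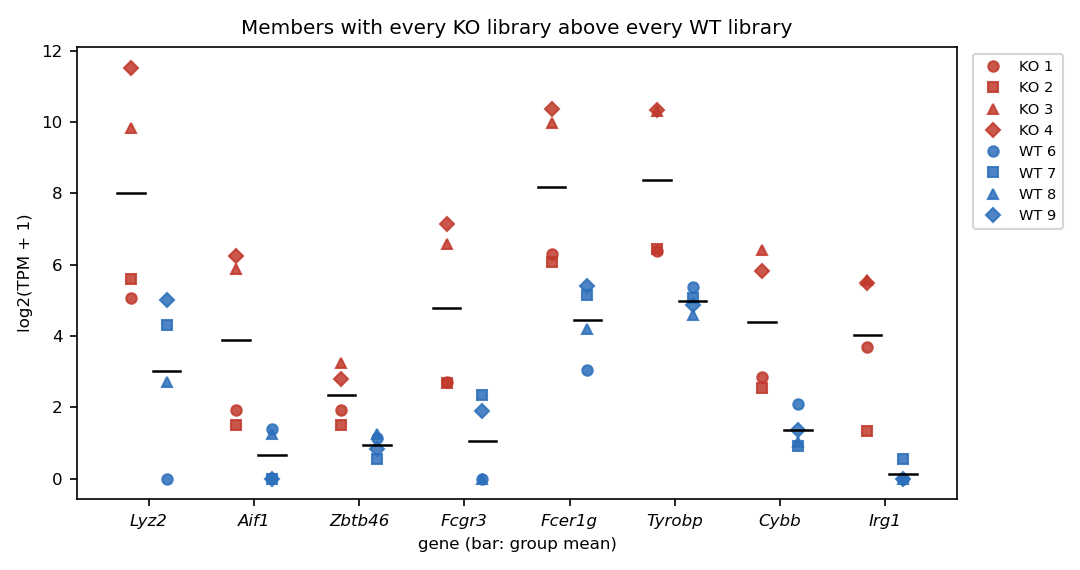
Level as log2(TPM + 1) of the 8 genes whose KO libraries (red) all lie above their WT libraries (blue), 1 symbol per library, with a bar at each group mean. KO 3 and KO 4 are the highest for each gene. On this log2 scale the closest approach of the groups is that of KO 1 at 32.2 TPM and WT 9 at 31.1 TPM for Lyz2.

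Among the general markers of macrophages and monocytes, Lyz2 (chromosome 10, 117277331 to 117282321), the lysozyme of macrophages that cuts bacterial cell walls, reached the highest level of any member, in KO 4. It stood at 32.2, 47.2, 902 and 2952 TPM in KO 1 to 4 and at 0, 18.9, 5.56 and 31.1 TPM in WT 6 to 9. KO against WT gave a log2 difference of 4.99 (SE 1.55, limma adjusted p = 0.442), and 2.31 (SE 1.23) without KO 3 and KO 4. In KO 4 it was the 57th most abundant transcript of the table and in KO 3 the 169th. Its neighbour Lyz1, the lysozyme of Paneth cells in the gut, was also highest in KO 4 and KO 3, at a lower level, with 4.16, 7.26, 93.6 and 268 TPM in KO and 0, 2.70, 0.695 and 5.90 TPM in WT libraries. The Lyz2 level was 6.5 to 11.0 times that of Lyz1 in the KO libraries. Of the 38-base windows of the Lyz2 transcript, 25.3% also occur in Lyz1, and the reads were 38 bases long. Reads could have been split between both genes, so the values of Lyz1 in particular are uncertain.

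Cd68, a glycoprotein of the lysosome membrane, was at 27.0, 12.999, 165 and 163 TPM in KO and at 12.2, 5.398, 36.1 and 12.98 TPM in WT libraries. KO 1 and KO 2 lay inside the WT range. Aif1, an actin-binding protein of activated macrophages, was at 2.77, 1.81, 58.0 and 74.9 TPM in KO and at most 1.63 TPM in any WT library. Itgam, the CD11b chain of complement receptor 3, reached 22.7 and 50.5 TPM in KO 3 and KO 4 and was at most 3.47 TPM elsewhere. In the annotation 72.7% of the windows of the Itgam transcript are shared with the overlapping model Gm49368, so its level is uncertain.

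Mpeg1, a pore-forming protein that acts inside phagosomes, was at 58.3 and 37.9 TPM in KO 3 and KO 4, and at most 3.93 TPM elsewhere. Sirpa, the receptor for the CD47 signal that restrains phagocytosis, was at 43.4 and 51.8 TPM there, and at most 3.12 TPM in the other libraries. Ms4a7 was at 9.57 and 9.68 TPM in that pair and under 1 TPM in the rest. These 3 genes were therefore near the bottom of the scale outside KO 3 and KO 4. Ms4a6c, of the same membrane protein family as Ms4a7, differed from them. It was at 10.6 to 33.6 TPM in KO 1, KO 2 and the WT libraries. In KO 3 and KO 4 it was at 96.3 and 165 TPM. Of the windows of the Ms4a6c transcript, 18.5% occur in other genes, 11.1% in Ms4a6b, so its level is uncertain. Trem2, a lipid receptor of tissue macrophages, was listed at 0 in KO 1, KO 2, WT 6, WT 7 and WT 8, and was at 2.09 TPM in KO 3, 25.2 in KO 4 and 1.97 in WT 9. Emr1, the older symbol of Adgre1, which encodes the F4/80 antigen of macrophages, was at 0, 0.302, 8.38 and 24.0 TPM in KO 1 to 4 and had no value above 0 in WT libraries.

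Growth factor receptors and lineage factors were at low levels outside KO 3 and KO 4. Csf1r (chromosome 18, 61100598 to 61132149), the receptor for the growth factor on which macrophages depend, was at 6.93, 0.302, 38.9 and 109 TPM in KO and at 0, 0.450, 0 and 5.51 TPM in WT libraries. KO 1 and WT 9 thus had more of it than the remaining 4 low libraries. Csf2ra and Csf2rb, the chains of the GM-CSF receptor, were at 40.4 to 82.3 TPM in KO 3 and KO 4 and at 3.25 TPM or less elsewhere. Of the windows of the Csf2rb transcript, 23.8% occur in its paralogue Csf2rb2, so its level is uncertain. Flt3, the receptor that drives dendritic cell development, was at 33.2 TPM in KO 3, 14.3 TPM in KO 4 and at most 1.39 TPM elsewhere.

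Zbtb46, a transcription factor of conventional dendritic cells, had a narrower range than the other 4 genes and no overlap between groups. It was at 2.77, 1.81, 8.38 and 5.89 TPM in KO and at 1.22, 0.450, 1.39 and 0.787 TPM in WT libraries (log2 fold change 1.41, SE 0.41, limma adjusted p = 0.404). Sfpi1, the older symbol of Spi1, encodes PU.1, the transcription factor that directs myeloid development. It was at 0.347, 0.907, 30.8 and 31.6 TPM in KO 1 to 4 and at 0, 0, 0.347 and 0 TPM in WT 6 to 9, the same 2 libraries being high.

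PU.1 binds a purine-rich core, and letters of that core were looked for on both strands of the 250 bases before the start site of the members. RefSeq promoter sequences (GRCm38.p6) matched 29 of the 38 members, with 32 promoters. GAGGAA occurred in 14 of the 32 (43.8%) and in 23.3% of all 32851 promoters. AGGAAGT occurred in 8 (25% against 7.69%), and GAGGAAGT, which holds both overlapping shorter words, in 1 (3.12% against 2.44%). The words were picked after others had been tried, and a match is a string of letters and not a binding site. The following 4 promoters are shown because they belong to Lyz2, the member with the highest level in KO 4, to Irg1 and Aif1, whose groups did not overlap, and to C1qc, the one with the longest word. Capitals mark the word, AGGAAGT for the first pair, GAGGAA for Aif1 and GAGGAAGT for C1qc, as its reverse complement except in Irg1, each sequence running 5′ to 3′ on the strand of the gene.
Lyz2, chr10:117282322-117282522, minus strand: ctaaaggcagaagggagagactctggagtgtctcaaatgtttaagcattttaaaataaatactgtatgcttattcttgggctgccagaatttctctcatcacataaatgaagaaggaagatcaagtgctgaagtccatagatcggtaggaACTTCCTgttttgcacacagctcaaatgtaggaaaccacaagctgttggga
Irg1 (Acod1 in RefSeq), chr14:103046762-103046976, plus strand: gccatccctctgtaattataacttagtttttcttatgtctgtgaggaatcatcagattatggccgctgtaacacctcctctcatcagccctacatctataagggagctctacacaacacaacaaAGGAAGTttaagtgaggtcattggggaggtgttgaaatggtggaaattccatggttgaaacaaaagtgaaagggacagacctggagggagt
Aif1, chr17:35176053-35176302, minus strand: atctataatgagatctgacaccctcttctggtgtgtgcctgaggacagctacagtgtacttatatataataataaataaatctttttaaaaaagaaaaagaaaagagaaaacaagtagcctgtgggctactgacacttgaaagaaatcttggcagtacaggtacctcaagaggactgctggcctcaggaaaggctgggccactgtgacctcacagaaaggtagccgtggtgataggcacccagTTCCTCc
C1qc, chr4:136893066-136893164, minus strand: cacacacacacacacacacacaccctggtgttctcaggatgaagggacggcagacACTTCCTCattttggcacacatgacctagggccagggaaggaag
The word began 100 bases before the RefSeq start site in Lyz2, 126 in Irg1, 7 in Aif1 and 195 in C1qc. Where the GENCODE gene model covers more than 30 of the bases nearest to the start, these are left out, 49 for Lyz2, 35 for Irg1 and 151 for C1qc. For Aif1 the printed sequence ends inside that model, and so does its word.

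Fc receptors bind the constant part of antibodies, and most of the activating ones signal through the adaptor encoded by Fcer1g. Fcer1g (chromosome 1, 171229572 to 171234365) was at 77.3, 65.9, 996 and 1314 TPM in KO and at 7.32, 34.6, 17.4 and 41.3 TPM in WT libraries. Its log2 fold change was 3.72 (SE 1.02, limma adjusted p = 0.395), and 1.72 (SE 0.60) without KO 3 and KO 4. Tyrobp (chromosome 7, 30413760 to 30417585), the DAP12 adaptor that serves TREM2 and other activating receptors, was at 83.2, 84.9, 1280 and 1291 TPM in KO. Its WT levels were 40.6, 32.4, 23.3 and 28.3 TPM. Its log2 fold change was 3.39 (SE 0.92, limma adjusted p = 0.395). Without KO 3 and KO 4 it was 1.43 (SE 0.24), with an unadjusted limma p of 4.01e-04 and an adjusted p of 0.795. Both adaptors are also made by natural killer cells. The summed level of 10 natural killer cell genes was 662 to 1057 TPM in KO, highest in KO 3 and KO 4. It was 315, 743, 846 and 334 TPM in WT 6 to 9, so that WT 7 and WT 8 exceeded KO 1. Klrd1 and Klrk1 were its largest parts in every library. They were at 586 and 236 TPM in KO 3 and at 412 and 356 TPM in WT 8. Ncr1 and Klrb1c were at 5.98 and 14.1 TPM in KO 3 and at 0 and 9.03 TPM in WT 8. The sum thus rests largely on Klrd1 and Klrk1 and is not a measure of the amount of natural killer cells. The part of the 10 genes in the differences of both adaptors was not tested. Of the 10 genes, 0 passed over all genes and 6 were higher at an unadjusted limma p under 0.05, beside 6.01% of all genes. Without KO 3 and KO 4 it was 2 of 8, beside 1.51%. Klra7 and Klre1 had the smallest p, with log2 fold changes of 1.41 and 1.86 (limma adjusted p = 0.395 each).

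The receptors themselves were at lower levels than the adaptors in every library. Fcgr1, the high-affinity receptor for IgG, was at 4.50, 0.302, 66.7 and 74.5 TPM in KO, at 0.347 TPM in WT 8 and at 0 in the other WT libraries. Fcgr3, an activating receptor of lower affinity, was at 5.54, 5.44, 94.2 and 140 TPM in KO and at 0, 4.05, 0 and 2.75 TPM in WT libraries. Fcgr2b, the inhibitory receptor of the family, was at 6.58, 2.12, 71.2 and 157 TPM in KO and at 4.88, 1.35, 16.7 and 9.05 TPM in WT libraries. Thus KO 1 and KO 2 lay above the WT range for Fcgr3 and inside it for Fcgr2b, whose log2 fold change without KO 3 and KO 4 was -0.53 (SE 0.77). Fcgr2b is also the Fc receptor of B cells, and Cd79b, a B cell receptor chain, was highest in WT 6 and WT 9 (34.1 and 27.9 TPM). Of the windows of the Fcgr3 transcript, 15.4% occur in Fcgr2b, so the split between them is uncertain.

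C1q, the first component of the classical complement pathway, is built from 3 chains whose genes lie together on chromosome 4 (136880129 to 136898803). C1qb was at 0, 14.5, 82.6 and 210 TPM in KO 1 to 4 and at 1.63, 3.598, 0.695 and 20.5 TPM in WT 6 to 9. C1qa was at 0, 4.84, 43.1 and 102 TPM in KO and at most 7.87 TPM, in WT 9, among WT libraries. C1qc was at 0, 1.21, 7.78 and 32.8 TPM in KO and at most 1.57 TPM in WT libraries. The levels ran C1qb, C1qa, C1qc in KO 2, KO 3, KO 4 and WT 9, and the next highest libraries after KO 3 were WT 9 and KO 2 for all 3 chains. KO 1 listed all 3 at 0. The groups overlapped, and the log2 fold changes of 1.77 to 2.47 had limma adjusted p from 0.606 to 0.659.

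The C-type lectins Clec4d, Clec4e (Mincle) and Clec4n (Dectin-2) recognise fungal and mycobacterial sugars and lie within 60.0 kb of chromosome 6. Clec4n was at 17.7, 0, 44.9 and 90.5 TPM in KO and at 0, 0.450, 0 and 1.18 TPM in WT libraries. Of the 19 alternative settings, not all of which could fit every member, leaving out KO 2 was the one that put a member past the adjusted threshold, and that was Clec4n (log2 fold change 5.004, limma adjusted p = 0.0391). KO 2 was the only KO library that listed Clec4n at 0, so that setting removed the overlap with the WT libraries. With all libraries the log2 fold change of Clec4n was 3.65 (SE 1.18, limma adjusted p = 0.468). Clec4d was at 2.77, 0, 27.2 and 17.7 TPM in KO and Clec4e at 0, 0, 53.2 and 53.0 TPM, and neither reached 1 TPM in a WT library. Mrc1, the mannose receptor of tissue macrophages, stayed low in all libraries, with 2.99 TPM in KO 3 and 7.57 in KO 4.

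Among the enzymes, Irg1 (chromosome 14, 103046977 to 103056573), which makes the antimicrobial metabolite itaconate, had the smallest p of the members. It was at 11.8, 1.51, 46.4 and 44.2 TPM in KO 1 to 4 and was listed at 0 in WT 6, WT 8 and WT 9, with 0.450 TPM in WT 7. The log2 fold change was 3.88 (SE 0.83, limma adjusted p = 0.306). Irg1 met the filter through the KO libraries alone. Its log2 fold change ranged from 3.84 to 4.02 when a WT library was dropped. That could move it little, as all WT values were at or near 0. When any KO library was dropped, the gene no longer met the filter and could not be fitted. Arg1, arginase 1, which degrades arginine, was at 19.8, 0.907, 15.6 and 174 TPM in KO and at 1.39 TPM or less in WT libraries. In Arg1, unlike in the other enzymes, KO 1 exceeded KO 3.

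KO 1 therefore had Arg1, Clec4n and Irg1 at 11.8 to 19.8 TPM while C1q was listed at 0, and KO 2 and WT 9 had C1qb at 14.5 and 20.5 TPM while Arg1, Clec4n and Irg1 were at 1.51 TPM or less. KO 3 and KO 4 had both sets. Arg1, Clec4n and Irg1 were picked from the lectins and enzymes by their values. The other lectins were lower in KO 1, with Clec4e at 0, Clec4d at 2.77 TPM and Mrc1 at 0.693 TPM. This contrast was noticed in the values and was not tested.

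**Figure D3:**
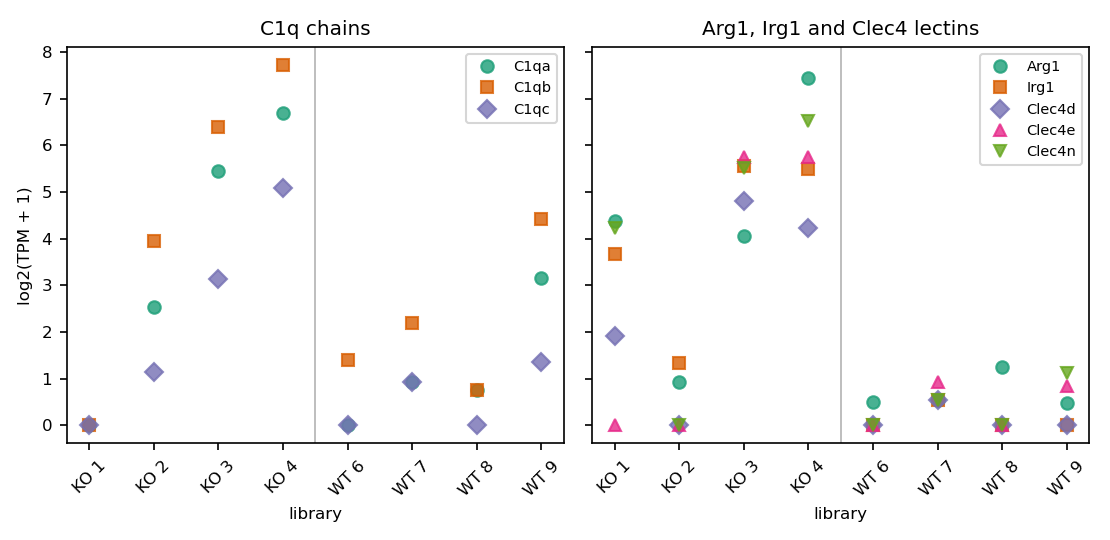
Level as log2(TPM + 1) in each library of the 3 C1q chains (left) and of Arg1, Irg1 and 3 Clec4 lectins (right), 1 symbol per gene. In KO 1 the C1q chains are at 0 while Arg1, Clec4n and Irg1 lie between 11.8 and 19.8 TPM, Clec4d at 2.77 TPM and Clec4e at 0. In WT 9 C1qb is at 20.5 TPM while the genes on the right are at 1.18 TPM or less.

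Cybb, the catalytic chain of the phagocyte NADPH oxidase, was at 6.24, 4.84, 83.5 and 55.1 TPM in KO and at 3.25, 0.900, 1.04 and 1.57 TPM in WT libraries, without overlap. Its log2 fold change was 3.05 (SE 0.84, limma adjusted p = 0.395), and 1.35 (SE 0.42) without KO 3 and KO 4. Of its 6 oxidase partners, 0 passed over all genes and 2 were higher at an unadjusted limma p under 0.05, beside 6.01% of all genes. The median log2 fold change of the 6 was 0.17. Without KO 3 and KO 4, 0 of the 6 had such a p, beside 1.51% of all genes higher and 2.57% lower. Their median was then -0.0432. Among the 6 partners was Ncf1, a cytosolic subunit of the enzyme (log2 fold change 1.55 with all libraries).

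Hmox1, which degrades haem, was at 8.32, 5.14, 202 and 45.4 TPM in KO and at 2.03, 4.95, 10.4 and 1.57 TPM in WT libraries. Lgmn, a lysosomal protease, was at 112 and 102 TPM in KO 3 and KO 4 and at most 6.69 TPM elsewhere. Ctsb, the lysosomal protease cathepsin B, is widely made and was the most abundant member in every WT library, with 71.5 to 130 TPM. It was at 115, 135, 407 and 312 TPM in KO 1 to 4. The log2 difference between the genotypes was 1.12 (SE 0.41, limma adjusted p = 0.497), and 0.37 (SE 0.28) without KO 3 and KO 4, with KO 1 inside the WT range.

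Dendritic cell markers were less uniform. Siglech, a lectin of plasmacytoid dendritic cells, was at 0, 9.67, 223 and 47.1 TPM in KO and at 26.4, 3.15, 3.82 and 0 TPM in WT libraries, so that WT 6 exceeded KO 1 and KO 2. Cd209a, a lectin of monocyte-derived dendritic cells, was at 10.7, 0, 38.0 and 18.5 TPM in KO and at 6.25 TPM or less in WT libraries. Clec9a, a receptor for dead cells on the dendritic cells that cross-present antigen, was at 0, 1.21, 11.1 and 4.21 TPM in KO and at most 2.36 TPM in WT libraries. KO 3 had the highest value of each of these 3 genes.

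Itgax and Xcr1 did not set KO 3 and KO 4 apart. Itgax, the integrin chain CD11c, which activated T cells can also carry, was at 28.1, 13.9, 29.6 and 34.5 TPM in KO and at 11.4, 50.8, 46.2 and 7.08 TPM in WT libraries, the highest values being those of WT 7 and WT 8. KO against WT gave 0.24 (SE 0.60, limma adjusted p = 0.933). Xcr1, the chemokine receptor of cross-presenting dendritic cells, was at 4.85 to 13.2 TPM in KO and 3.25 to 11.2 TPM in WT libraries (log2 fold change 0.15, SE 0.38, limma adjusted p = 0.935). For all 5 members of this group the groups overlapped and 0 had an unadjusted limma p under 0.05.

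The 2 high libraries also differed from each other in the mix of members. Among the 35 members at 5 TPM or more in both, the level in KO 4 was 0.211 to 11.2 times that in KO 3, with a median ratio of 1.12, and 20 were higher in KO 4 and 15 in KO 3. Arg1 had the largest ratio, followed by C1qc (4.22), Lyz2 (3.27), Lyz1 (2.86) and Csf1r (2.79). At the other end were Siglech (0.211), Hmox1 (0.225), Flt3 (0.431) and Cd209a (0.487). Tyrobp (1.009), Clec4e (0.996) and Csf2rb (0.992) were at nearly the same level in both. With 1 library on each side there is no test of these ratios.

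**Figure D4:**
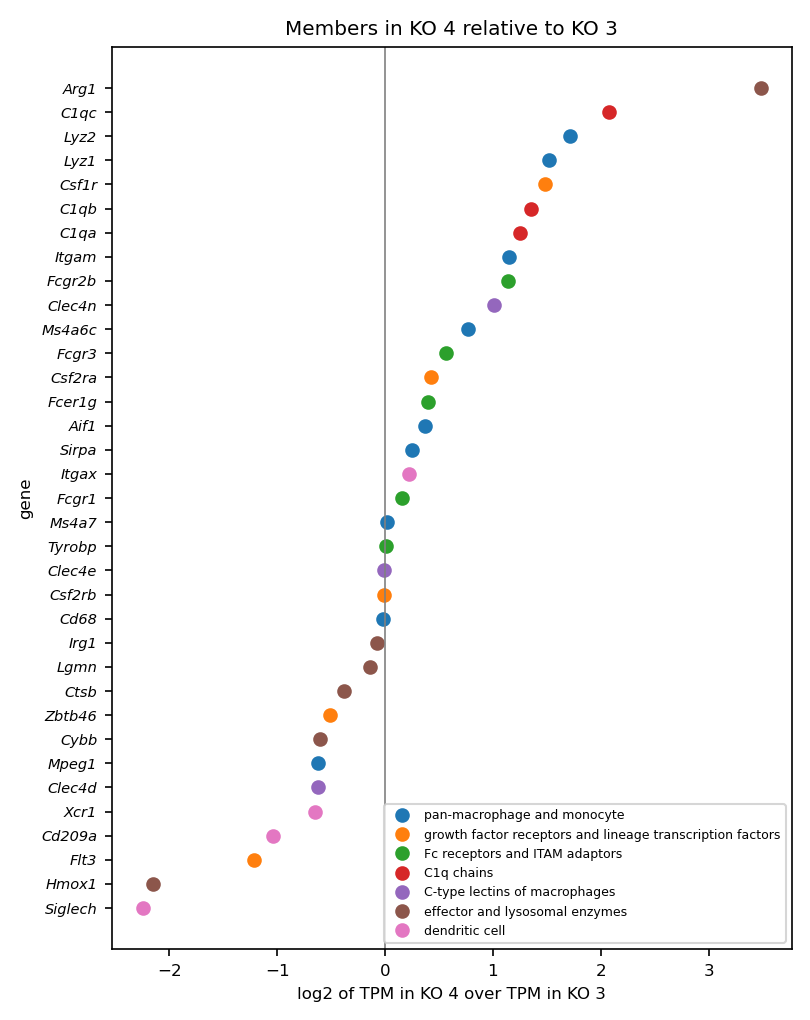
Log2 of the ratio of TPM in KO 4 to TPM in KO 3 for the 35 members at 5 TPM or more in both libraries, 1 point per gene, coloured by role. Arg1, the C1q chains, the lysozymes and Csf1r lie to the right (higher in KO 4), and Siglech, Hmox1, Flt3 and Cd209a to the left (higher in KO 3).

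The 7 members that missed the filter were Fcgr1, Mrc1, Clec4d, Clec4e, Ms4a7, Trem2 and Flt3. Two-sided exact permutation tests on log2(TPM + 1) gave p = 0.0571 for Fcgr1 and 0.143 to 0.429 for the others, and the smallest p this design allows is 0.0286. Adjusted over these 7 tests, the p-values were 0.4 to 0.429. All 7 had their highest values in KO 3 and KO 4.

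**Figure D5:**
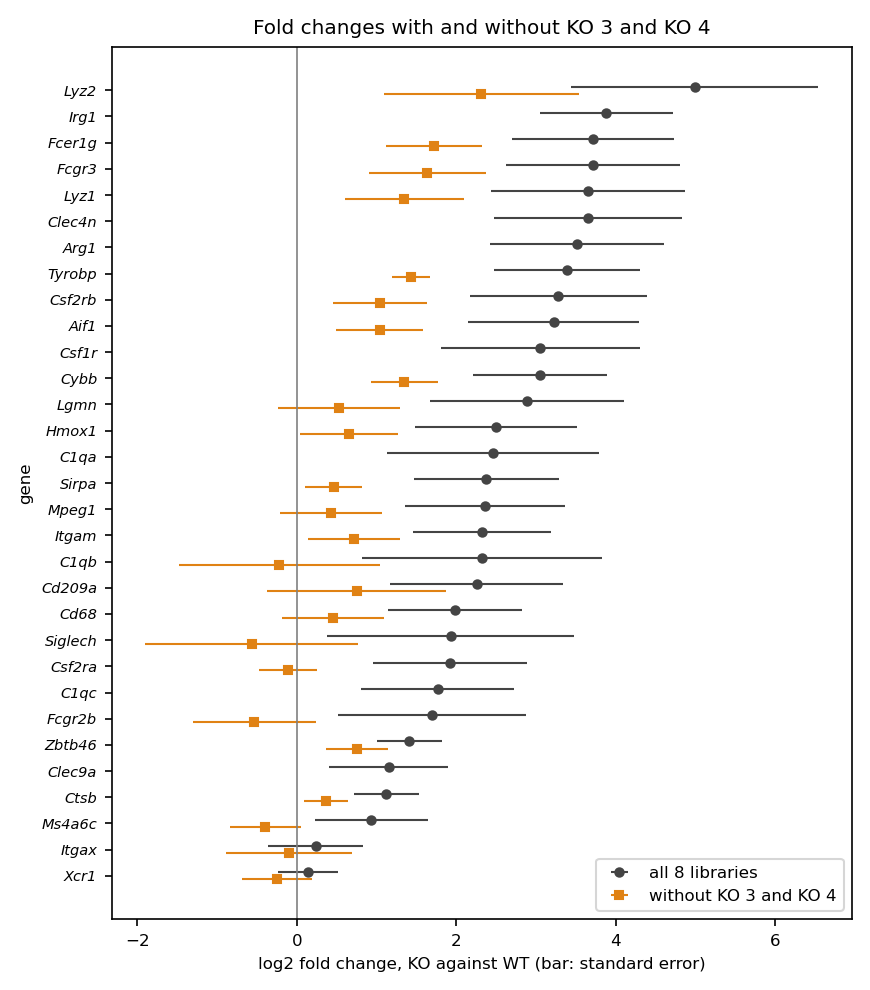
Log2 fold change of KO against WT with its standard error for the 31 tested members, with all 8 libraries (circles) and without KO 3 and KO 4 (squares, absent for the 7 members too low to be tested then). All circles lie to the right of 0 with a median of 2.38, and the squares have a median of 0.59 with 7 of 24 to the left of 0.

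Other genes known from the same cells and pathways were counted in the same way, against the same background of 6.01% of all genes higher and 3.07% lower. Of 21 tested genes from a second list of macrophage and monocyte genes, 0 passed over all genes, 20 had a positive and 1 a negative log2 fold change, and 9 were higher and 1 lower at an unadjusted limma p under 0.05 (median log2 fold change 1.55). Without KO 3 and KO 4, 0 of 19 were higher and 1 lower at that p, beside 1.51% and 2.57% of all genes. Of the 19, 15 were positive and 4 negative, with a median of 0.52. The gene on the other side was Apoe, a lipid carrier of macrophages, at 0.693, 1.21, 0.897 and 4.21 TPM in KO and 7.32, 8.996, 3.47 and 49.6 TPM in WT libraries (log2 fold change -2.25, SE 0.69, limma adjusted p = 0.439). It was low in KO 3, where most members were high. Lilrb4, an inhibitory receptor, had every KO library above every WT library (log2 fold change 1.76, limma adjusted p = 0.395).

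Of 12 tested genes from a second dendritic cell list, 0 passed over all genes and 2 were higher at an unadjusted limma p under 0.05 (median log2 fold change 1.14). Without KO 3 and KO 4, 1 of 12 was higher and 1 lower, with a median of -0.29. The 2 with all libraries were Irf8 (2.01), a transcription factor of dendritic cells that T cells also make, and Clec10a (2.34), a galactose-binding lectin. Of 12 genes that signal below the lectins and adaptors, 0 passed over all genes and 5 were higher at that p (median 0.70), among them the kinase Lyn (2.35). Without KO 3 and KO 4, 0 of 9 were higher at that p and the median was 0.0518. Of 4 other complement genes tested, 0 passed over all genes and 3 were higher at that p (median 2.51), led by Cfb (3.16) and the receptor C3ar1 (2.58). Without KO 3 and KO 4, 0 of 2 were higher and the median was 0.21. The KO and WT ranges overlapped for Clec10a, Lyn, Cfb and C3ar1.

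Markers of the sorted cells and of other cells were summed as well. The summed level of 11 T cell identity genes was 6397 to 7372 TPM in KO and 6805 to 8993 TPM in WT libraries, with the lowest sums in KO 4 and KO 3 (6397 and 6523 TPM). Of these 11, 0 passed over all genes and 2 were lower at an unadjusted limma p under 0.05, beside 3.07% of all genes. Without KO 3 and KO 4 it was 0, beside 2.57%. The 2 were Lat (log2 fold change -0.52, limma adjusted p = 0.472) and Cd8b1 (-0.38, limma adjusted p = 0.502). Both had every KO library below every WT library, as 2.4% of all genes had. That also held for 2 of the 11 when KO 3 and KO 4 were left out, beside 7.93% of all genes. Neutrophil genes summed to 15.4 to 128 TPM in KO and 17.1 to 80.1 TPM in WT libraries, with Retnlg and Mpo listed at 0 throughout and Cxcr2 at a log2 fold change of -0.23. Neither of the 2 that could be tested had an unadjusted limma p under 0.05. Mast cell and basophil genes stayed at 5.89 TPM or less in sum, with Fcer1a and Gata2 at 0 throughout and 0 of 7 tested. Genes of tumour epithelium and stroma summed to 32.3 to 142 TPM in KO, highest in KO 4, and to 20.7 to 39.0 TPM in WT libraries, with Krt8 at 1.48 and Pecam1 at -0.40 on the log2 fold change scale. Of the 3 tested, 0 passed and 1 was higher at an unadjusted limma p under 0.05, Epcam (log2 fold change 1.498, limma adjusted p = 0.395), which is named although its mean was under 5 TPM, after its values were seen. Erythroid and platelet genes summed to 1248 TPM in KO 1, 976 in KO 4 and 469 in WT 9, and to at most 45.8 TPM elsewhere, most of it Hba-a1 (log2 fold change 1.197, limma adjusted p = 0.908), with 0 of 3 at an unadjusted limma p under 0.05. B and plasma cell genes were highest in WT 6 and WT 9 (50.8 and 49.95 TPM), with 0 of 2 tested genes at such a p and Cd79b at a log2 fold change of -0.90. The part of these cells in the values above was not tested.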

How the data were processed

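RNA of 8 libraries of sorted CD8+ T cells was analysed. The deposited unit is a score that the authors named a TPM-normalized count, in whole numbers that are neither raw counts nor TPM. The submitters' processing notes list RSEM 1.3.3 and mm10. The aligner, gene models and scaling step remain not given in the sources used here. Values were scaled here to 1000000 per library, so the planned test on TPM was kept. It was limma 3.58.1 (R 4.3.3) on log2(TPM + 1) with a mean trend and genotype as the only term, over the 10732 genes that reached 1 TPM in 4 or more libraries, with Benjamini-Hochberg adjustment. The pseudocount of 1 makes fold changes of low genes too small. Per the series' design text each group held 4 mice, and read depth is unknown, so no counting error is given.

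The members, the lists and the tests were chosen with earlier results of these data known. Every member is named. Of each further list the text names the genes past the threshold, or else the 2 of smallest p among those with a mean of 5 TPM or more. Some genes that this rule names are not reported here. Symbols matched for 38 members, and coordinates are from GENCODE M21 (GRCm38, 1-based). Shared sequence was counted as 38-base windows of the longest coding transcript that occur in another gene. The fit was tested on simulated data. Alternatives changed the pseudocount, filter, scaling and limma options and dropped libraries. Python 3.11.15 and pandas 2.3.3 handled the tables.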

Additional observations from a re-analysis of the deposited data

Results flagged for a closer look

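Among 78 groups of 4 libraries, 12 had 1 library that lay far from the other 3 by Dixon's test. For normally distributed values the test marks about 1 in 20, or 3.9. These are TPM with many values at 0, and 1 value above 0 beside 3 at 0 is always marked. The count of 12 can therefore not be read against 3.9. Members share libraries, so these groups are not independent. In WT 9, Csf1r was at 5.51 TPM (others at most 0.450), C1qa at 7.87 (at most 0.900), C1qb at 20.5 (at most 3.598), and Trem2 at 1.97 and Mrc1 at 0.787 where the other WT libraries listed 0. In KO 4, Arg1 was at 174 TPM (others 0.907 to 19.8) and Trem2 at 25.2 TPM (others at most 2.09). Siglech was at 26.4 TPM in WT 6 (others at most 3.82). Like Mrc1 in WT 9, the other 4 were values near the lowest step of the table: Arg1 at 1.39 TPM and Fcgr1 at 0.347 TPM in WT 8, and Clec4d and Irg1 at 0.450 TPM each in WT 7.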

How the results depend on the processing

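No paired analysis was possible because KO and WT mice have no replicate number in common. The settings that drop KO 3 and 4 (setting A), WT 6 and 9, the libraries low in Gapdh (B), or both pairs (C) were chosen after seeing the data. Of the 31 members 22 kept their sign in every setting in which they could be fitted. The 22 include Csf1r, Arg1, C1qa, C1qc, Clec4n, Irg1 and Clec9a, which could not be fitted under A. Genes past the threshold numbered 3, from 1 to 3 with 1 library dropped, 1 under A, 2 under B and 10 under C. Members past it numbered 0, and 0 to 1 with 1 library dropped. Members at an unadjusted limma p under 0.05 numbered 20. They were 9 to 23 with 1 library dropped (24 to 31 tested), where 3.02% to 7.84% of all genes were higher, and 10 of 17 with a filter of 5 TPM (5.52%). They were 3 of 24 under A (1.51% of all genes higher, 2.57% lower), 11 higher and 1 lower, 12 in all, of 34 under B (3.83% and 5.73%) and 8 higher and 1 lower, 9 in all, of 26 under C (3.51% and 8.88%). Members whose groups do not overlap numbered 8. They were 7 to 13 with 1 library dropped (3.18% to 5.97% of all genes above), the highest without KO 2 (5.12%), and 4 with a filter of 5 TPM (2.61%). They were 12 above and 1 below, 13 in all, under B (7.35% and 13.4% of all genes) and 12 above and 2 below, 14 in all, under C (13.3% and 30%), shares that rise as fewer libraries remain. The median log2 fold change of all genes was -0.11 under C, against 0.041. Log2 fold changes that changed sign under A were -0.10 for Itgax, -0.53 for Fcgr2b, -0.22 for C1qb, -0.40 for Ms4a6c, -0.11 for Csf2ra, -0.25 for Xcr1, -0.57 for Siglech, -0.22 for Krt8 and 0.0859 for Pecam1. Under B they were -0.917 for Itgax, -0.23 for Xcr1 and 0.0429 for Cd79b. Under C they were -1.25 for Itgax, -0.406 for Fcgr2b, -0.64 for Ms4a6c, -0.0578 for Csf2ra, -0.12 for Hmox1, -0.62 for Xcr1, -0.27 for Cd209a, -0.453 for Siglech, 0.36 for Cd79b, -1.07 for Krt8 and 0.48 for Pecam1. With 1 library dropped, the log2 fold change ran from -0.251 to 0.643 for Itgax (negative without WT 6 or WT 9), from -0.155 to 0.353 for Xcr1 (negative without KO 3 or WT 6), from -0.255 to 2.77 for Hba-a1 (negative without KO 1 or KO 4) and from -0.153 to 0.0417 for Cd3e (positive without WT 7 or WT 8). The filter asked for 1 TPM in 3 libraries under A and B and in 2 under C, in place of 4. Thus 10659 genes were tested under A, 10900 under B and 10867 under C, against 10732. With 1 library dropped the filter stayed at 4 libraries, and fewer genes were tested. Changes in the counts therefore mix dropped libraries with changed sets of genes, and otherwise the cause was not tested.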
